A study of Mus musculus with 10 samples.

Results

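The genes described here are 34 immediate early and heat shock genes, taken by symbol from a given list and matched to the Ensembl identifiers of the count files through GENCODE M21 (GRCm38). All 34 were found among 43432 identifiers, and all 34 were among the 19281 genes that passed the filter on low counts. The list holds 27 immediate early genes in 6 roles and 7 heat shock genes. Tuft cells are rare chemosensory epithelial cells, and the series compared those of the thymus with those of the small intestine (SI). Of the 10 RNA-seq libraries, 4 are thymic tuft cells (replicates 1 to 4), 3 are SI tuft cells (replicates 2 to 4) and 3 are SI epithelium (replicates 1 to 3). Each library was made from 1 untreated (naive) male mouse aged 12 weeks. All mice carried the same strain label, C57BL6.Il25(Flare25/Flare25), in which Flare25 is a fluorescent reporter allele of Il25. Thymic and SI tuft cells were sorted as DAPI-, CD45-, EPCAM+ and Flare25+ cells, and SI epithelium as Flare25- cells of otherwise the same gate. SI epithelium is thus a mixture of all reporter-negative epithelial types.

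Immediate early genes encode mostly transcription factors and feedback regulators whose mRNA appears within minutes of a stimulus without new protein synthesis and is short-lived. Their usual route runs from MAP kinases to serum response factor and CREB at their promoters. Heat shock genes encode chaperones that are switched on by heat shock factor 1 when proteins misfold. Both sets are known to be raised by the warm release of cells from solid tissue. According to the labels, thymus was digested with Liberase TM and DNase I and passed through Percoll, whereas intestinal epithelium was released with DTT and EDTA, in both cases with steps in the warm. Organ, release method and cell number (1350 to 1900 thymic tuft, 35000 to 36000 SI tuft and 52000 to 57000 SI epithelial cells) differ together between thymus and intestine and cannot be told apart. Both intestinal groups had the same release protocol.

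Total counts were 38659882 to 51153413 in thymic tuft, 46846738 to 62268881 in SI tuft and 52354113 to 73574745 in SI epithelium libraries, so that 3 counts correspond to at most 0.0817 CPM (counts scaled to a common library size with TMM factors) in any library. The mitochondrial share of counts was 4.38% to 5.97%, 24.1% to 33.5% and 18.6% to 23.7% in the same order. All 14 tuft cell markers were higher in both tuft groups than in SI epithelium (edgeR), and they summed to 7123 to 8185 CPM in thymic tuft, 28440 to 38593 CPM in SI tuft and 249 to 493 CPM in SI epithelium. Summed markers of other cell types and of thymic epithelium also moved with the groups. Goblet cell markers summed to 1566 to 2443 CPM in thymic tuft, 1841 to 2292 CPM in SI tuft and 81619 to 91547 CPM in SI epithelium. Thymic epithelium markers summed to 1187 to 1359 CPM in thymic tuft, 0.238 to 0.875 CPM in SI tuft and 5.41 to 8.51 CPM in SI epithelium, and markers of fibroblasts and endothelium to 21.5 to 154, 1.51 to 2.75 and 2.998 to 3.35 CPM. Myeloid and dendritic markers summed to 197 to 267, 10.4 to 34.4 and 11.2 to 12.1 CPM. Lyz2 made up most of the thymic sum, with 169 to 210, 1.82 to 12.8 and 3.73 to 4.42 CPM in the same order. Adgre1 ran the other way between the tuft groups, with 0.0570 to 2.80, 3.51 to 13.2 and 0 to 0.169 CPM, as did Itgax on average. T cell markers summed to 73.7 to 85.2, 156 to 189 and 4.68 to 12.7 CPM. Ptprc (CD45) made up most of the T cell sum, with 49.3 to 71.7, 136 to 176 and 2.62 to 9.88 CPM, and Cd3e had 0.378 to 4.90, 9.31 to 16.1 and 0.998 to 3.01 CPM. Enterocyte markers summed to 237 to 489 CPM in thymic tuft, 26321 to 32371 CPM in SI tuft and 13564 to 15800 CPM in SI epithelium. Paneth cell markers summed to 161 to 352, 125 to 475 and 10313 to 13643 CPM, enteroendocrine markers to 126 to 229, 516 to 1114 and 9544 to 13632 CPM, and stem and cycling cell markers to 93.5 to 152, 452 to 572 and 1675 to 2175 CPM. In SI tuft libraries the thymic epithelium markers Cd80 and Krt14 were at 0, as were Col1a2, Pdgfra and Cdh5. Whether thymic epithelium markers came from thymic tuft cells themselves or from other cells was not tested. The part of any of these cell types in the results below was not tested either. In bulk libraries fewer cells of a type and less RNA per cell cannot be told apart. Libraries also shared counts. Each SI epithelium library held counts that matched 0.505% to 0.847% of those of 1 thymic library. Smaller shares, of up to 0.179%, matched other thymic libraries and were included in the removal. These shares were estimated over 282 genes that were abundant in thymus and near 0 in SI tuft cells. Thymic replicates 1 to 3 held 0.876% to 0.948% of the counts of 1 SI epithelium library each, estimated over 6 genes. Values with these counts taken away are given below for the calls as a whole and for some genes that were low in epithelium.

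In SI tuft cells against SI epithelium, 1 of the 34 genes was higher and 18 were lower (edgeR quasi-likelihood test, Benjamini-Hochberg adjusted p below 0.05), where 10.9% of all genes tested were called higher and 11.4% lower. The median log2 fold change was -0.78 over the 34 genes and -0.10 over all genes tested. In thymic against SI tuft cells, 18 were higher and 4 lower, where 28.5% and 23.1% of all genes were, and the medians were 0.71 and 0.12. In thymic tuft cells against SI epithelium, 10 were higher and 13 lower, where 28.6% and 22.3% of all genes were, and the medians were -0.19 and 0.15. In either direction, 19, 22 and 23 of the 34 genes were called in these comparisons, where 22.3%, 51.6% and 50.9% of all genes were. The comparisons share groups and are not independent of each other. A value with ± beside an edgeR adjusted p is a log2 fold change with its SE, and a value with ± in CPM is a mean with its SD.

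By library, SI tuft and SI epithelium did not overlap for 2 genes that were higher and 21 that were lower, where 22.8% and 28.4% of all genes were so separated. Thymic and SI tuft libraries did not overlap for 17 higher and 5 lower genes (26.3% and 24.9% of all genes), and thymic tuft and SI epithelium libraries for 10 higher and 14 lower genes (28.1% and 27.4% of all genes). With shared counts taken away, the calls were 1 higher and 18 lower, 19 higher and 4 lower, and 11 higher and 13 lower.

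The shares of the 34 genes called in thymic tuft cells against either intestinal group move with the scaling of the libraries. With DESeq2 size factors, which shift the median of all genes by 0.24 and 0.23 on the log2 scale, 20 were higher and 1 lower against SI tuft cells, and 13 were higher and 11 lower against SI epithelium. Summed over the 27 immediate early genes, the level was 7879 to 8786 CPM in thymic tuft, 7472 to 8556 CPM in SI tuft and 14839 to 17104 CPM in SI epithelium libraries. Summed over the 7 heat shock genes, it was 2299.8 to 2917, 1042 to 1277 and 787 to 1600.1 CPM. The 2 tuft groups thus overlapped in the summed immediate early level, which rests most on abundant genes such as Egr1, Zfp36 and Jun. Gene by gene, 12 of the 27 were called higher and 4 lower in thymic than in SI tuft cells. Of all genes, 28.5% were called higher and 23.1% lower there. Thymic tuft libraries lay above all intestinal libraries in the summed heat shock level.

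**Figure D1:**
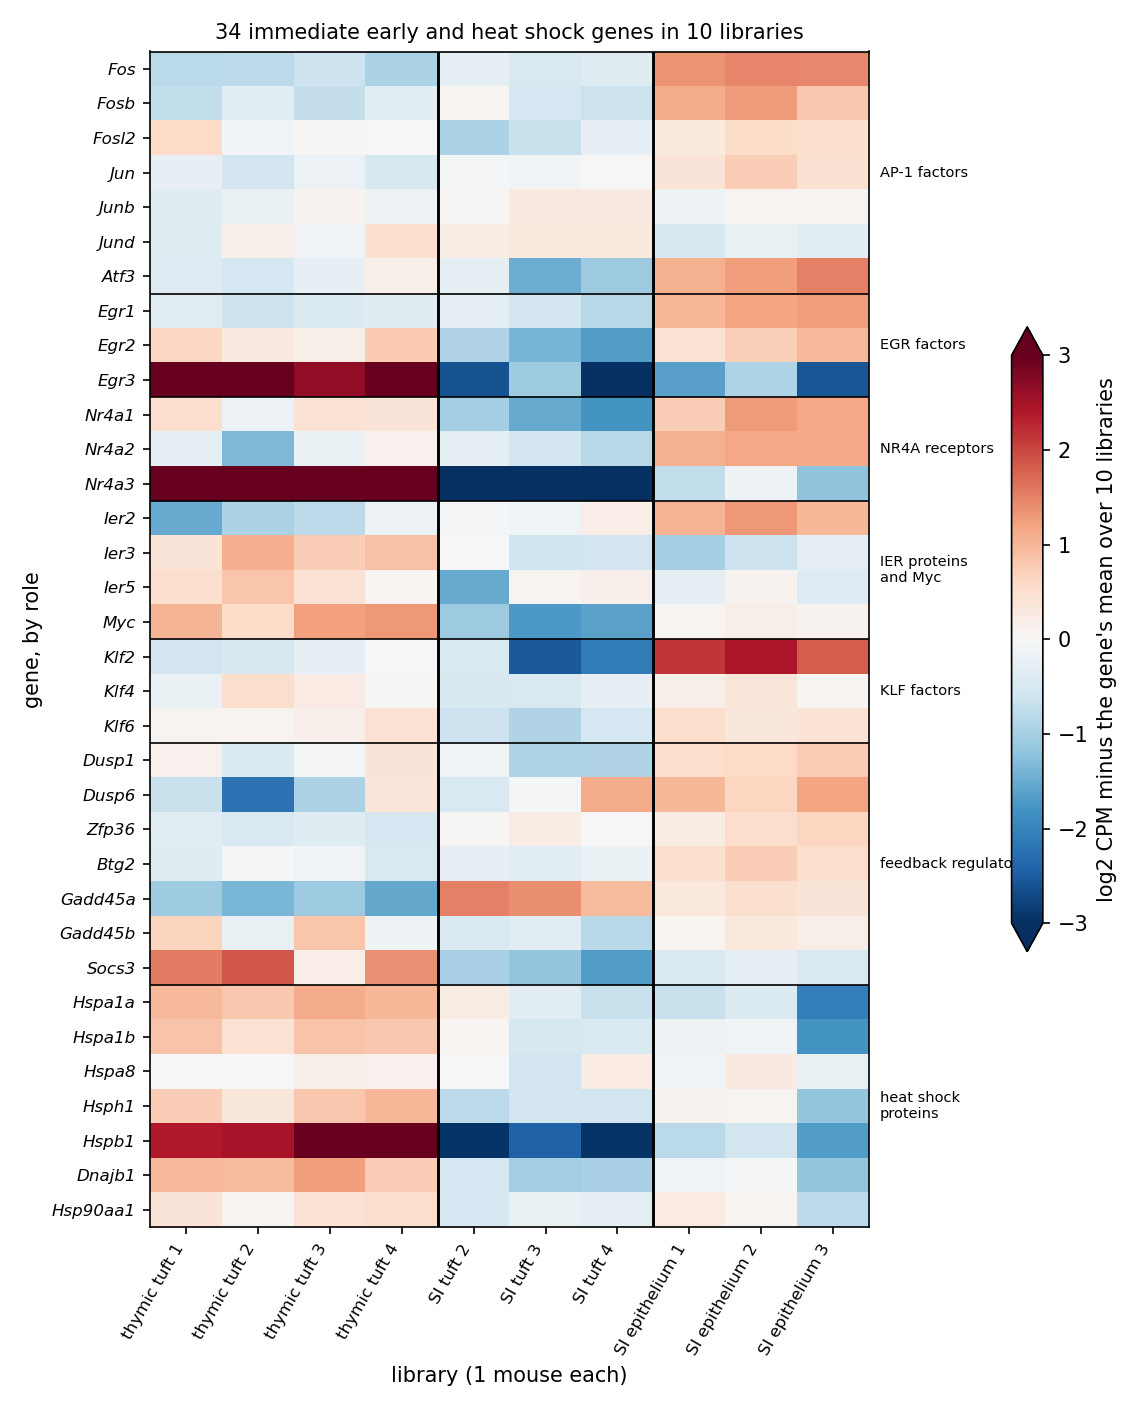
Each cell is the log2 CPM of 1 gene in 1 library minus that gene's mean over the 10 libraries, with genes by role from top to bottom and libraries from thymic tuft to SI tuft to SI epithelium; colours stop at 3 in either direction. By group mean 17 of the 27 immediate early genes are highest in SI epithelium. For 12 of them all 3 epithelial libraries lie above the other 7. The same counts were not made over all genes tested, so whether these stand out was not tested. Egr3, Nr4a3 and Hspb1 are highest in the 4 thymic tuft libraries, and SI epithelium replicate 3 is low for the heat shock genes.

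The AP-1 factors are leucine zipper proteins that bind DNA in pairs. In SI tuft cells 5 of 7 (Fos, Fosb, Fosl2, Jun and Atf3) were lower than in epithelium and none higher. Fos, the founding member, had 248, 252, 280.4 and 226 CPM in thymic tuft, 356, 317 and 338 CPM in SI tuft and 1103, 1201 and 1185 CPM in SI epithelium libraries. No pair of groups overlapped, and the epithelial level was 3.45-fold that of SI tuft cells. Its log2 fold change was -1.79 ± 0.14 (SE) in SI tuft cells against SI epithelium (edgeR adjusted p = 1.86e-06) and -2.21 ± 0.13 in thymic tuft cells against SI epithelium (edgeR adjusted p = 6.44e-08). Between the tuft groups it was -0.42 ± 0.12 (edgeR adjusted p = 0.014), a call that ended with DESeq2 size factors (edgeR adjusted p = 0.245) and with upper quartile scaling (edgeR adjusted p = 0.0557).

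Fosb, a close relative of Fos, had 263, 345, 269 and 354 CPM in thymic tuft, 468, 307 and 282 CPM in SI tuft and 946, 1064 and 764 CPM in SI epithelium libraries. Both tuft groups lay below every epithelial library and overlapped each other, with log2 fold changes of -1.59 ± 0.20 in thymic tuft cells (edgeR adjusted p = 4.14e-05) and -1.39 ± 0.22 in SI tuft cells (edgeR adjusted p = 0.000667), both against SI epithelium. Atf3, a stress-induced factor that can act as a repressor, had 169, 155, 188 and 250.4 CPM in thymic tuft, 184, 79.3 and 105 CPM in SI tuft and 469, 529.7 and 633 CPM in SI epithelium libraries. Of the 7 factors it had the largest difference between SI tuft cells and SI epithelium (-2.15 ± 0.29, edgeR adjusted p = 0.000222).

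Jun, the main partner of Fos, had 981, 799.9, 1026 and 832 CPM in thymic tuft, 1141, 1094 and 1163 CPM in SI tuft and 1526, 1940.3 and 1609 CPM in SI epithelium libraries. It was lower in SI tuft cells than in epithelium with a log2 fold change of -0.58 ± 0.15 (edgeR adjusted p = 0.0156), a call lost without SI epithelium replicate 2 (edgeR adjusted p = 0.0813) or SI tuft replicate 3 (edgeR adjusted p = 0.0558). Junb averaged 173 ± 23.9 CPM in thymic tuft (SD, n = 4), 218 ± 20.7 CPM in SI tuft and 191 ± 17.7 CPM in SI epithelium (n = 3 each) and passed in no comparison. Jund, the AP-1 factor least tied to stimulation, averaged 75.8 ± 19.2, 86.7 ± 2.78 and 56.5 ± 5.41 CPM in the same groups and passed in none either. Its log2 fold change in SI tuft cells against SI epithelium was 0.62 ± 0.21 (edgeR adjusted p = 0.0545), with every SI tuft library above every epithelial one. Fosl2, a Fos relative with a longer-lived protein, was lower in SI tuft cells than in epithelium (-1.04 ± 0.22, edgeR adjusted p = 0.00555) and higher in thymic than in SI tuft cells (0.76 ± 0.21, edgeR adjusted p = 0.0102), the last call being lost without SI tuft replicate 2 (edgeR adjusted p = 0.0542). Counts were made from libraries without strand, and annotated exons on the other strand cover 173 bases of Junb (Prdx2), 232 of Jun (Junos) and 877 of Jund (Gm11175, which had no counts).

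The 3 EGR zinc finger factors differed in which groups overlapped. Egr1 had 1841, 1510.1, 1745 and 1819 CPM in thymic tuft, 1949, 1572 and 1312 CPM in SI tuft and 4672, 5292 and 5617 CPM in SI epithelium libraries. The tuft groups overlapped, and every epithelial library was above both. Its log2 fold change was -1.69 ± 0.17 in SI tuft cells against SI epithelium (edgeR adjusted p = 1.74e-05), 0.10 ± 0.15 between the tuft groups (edgeR adjusted p = 0.609) and -1.59 ± 0.15 in thymic tuft cells against SI epithelium (edgeR adjusted p = 4.09e-06).

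Egr2, which restrains T cell activation and directs myelination, had 113, 88.5, 82.7 and 125 CPM in thymic tuft, 39.2, 27.7 and 23.0 CPM in SI tuft and 99.6, 121 and 144 CPM in SI epithelium libraries. Here SI tuft cells stood apart below both other groups, which overlapped. It was higher in thymic than in SI tuft cells by a log2 fold change of 1.77 ± 0.24 (edgeR adjusted p = 6e-05), and lower in SI tuft cells than in epithelium (-2.02 ± 0.25, edgeR adjusted p = 9.45e-05).

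Egr3, a target of calcineurin and NFAT signalling in lymphocytes, had 119.9, 168, 93.8 and 120.4 CPM in thymic tuft, 2.43, 7.13 and 1.45 CPM in SI tuft and 4.78, 7.83 and 2.50 CPM in SI epithelium libraries. Thymic tuft cells were far above both intestinal groups, which overlapped. Egr3 changed by 5.10 ± 0.59 on the log2 scale in thymic against SI tuft cells (edgeR adjusted p = 1.98e-05) and 6.00 without SI tuft replicate 3, which held the highest SI tuft value. Against SI epithelium it was 4.64 ± 0.58 (edgeR adjusted p = 3.44e-05). Taking away the counts shared between libraries removed up to 43.6% of the Egr3 counts of an epithelial library, left 3.73, 6.47 and 1.41 CPM in SI epithelium, and gave a log2 fold change of 5.13 in thymic tuft cells against SI epithelium.

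The NR4A receptors are nuclear receptors without a known physiological ligand whose activity follows their level, and they are induced by calcium and cAMP through CREB. All 3 were lower in SI tuft cells than in epithelium. Nr4a1 (Nur77), widely used as a readout of antigen receptor signalling, had 128, 80.0, 122 and 118 CPM in thymic tuft, 44.3, 31.8 and 26.1 CPM in SI tuft and 152, 220.0 and 202 CPM in SI epithelium libraries. The 3 groups did not overlap. On the log2 scale the change was -2.49 ± 0.25 in SI tuft cells against SI epithelium (edgeR adjusted p = 1.91e-05), 1.71 ± 0.23 in thymic against SI tuft cells (edgeR adjusted p = 7.74e-05) and -0.78 ± 0.22 in thymic tuft cells against SI epithelium (edgeR adjusted p = 0.0114). The last call was lost without SI epithelium replicate 2 (edgeR adjusted p = 0.0573) and with DESeq2 size factors (edgeR adjusted p = 0.0569).

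Nr4a2 (Nurr1), known for its part in dopamine neurons, had 23.7, 11.2, 24.9 and 31.3 CPM in thymic tuft, 23.6, 19.6 and 16.1 CPM in SI tuft and 59.6, 64.4 and 63.2 CPM in SI epithelium libraries. Both tuft groups overlapped at about a common level and lay below epithelium. Its log2 fold changes were -1.66 ± 0.33 in SI tuft cells (edgeR adjusted p = 0.00311) and -1.45 ± 0.30 in thymic tuft cells (edgeR adjusted p = 0.00154), both against SI epithelium.

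Nr4a3 (Nor1), which acts redundantly with Nr4a1 in lymphocytes, had 115, 177, 93.6 and 283 CPM in thymic tuft, 0.510, 0.653 and 0.396 CPM in SI tuft and 6.46, 9.72 and 4.66 CPM in SI epithelium libraries. No groups overlapped, and the order of the 3 groups differed from that of Nr4a1 and Nr4a2. Its log2 fold change of 8.32 ± 0.54 in thymic against SI tuft cells was the largest of the 34 genes in any of the 3 comparisons (edgeR adjusted p = 1.51e-07). Against SI epithelium it was 4.59 ± 0.43 in thymic tuft cells (edgeR adjusted p = 3.39e-06) and -3.73 ± 0.47 in SI tuft cells (edgeR adjusted p = 0.000111). With the counts shared between libraries taken away, SI epithelium held 5.37, 7.98 and 3.41 CPM, and both changes stayed called at 5.02 and -3.44.

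**Figure D2:**
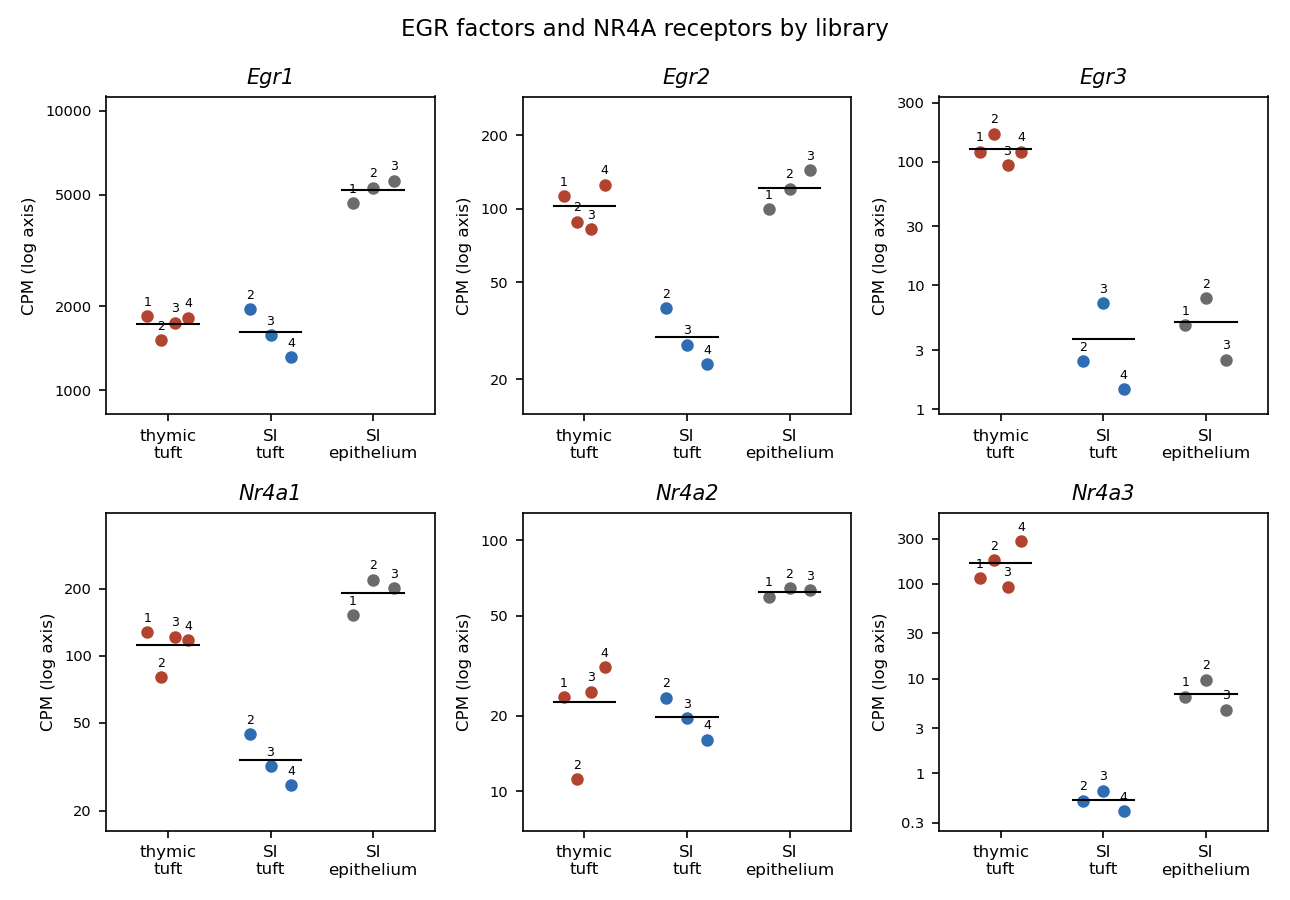
CPM of the EGR factors and NR4A receptors on a log axis for thymic tuft, SI tuft and SI epithelium, with 1 point for each library, its replicate number above it and a line at the group mean. Egr1 and Nr4a2 are high in SI epithelium alone, Egr2 and Nr4a1 are low in SI tuft cells, and Egr3 and Nr4a3 reach 93.6 CPM or more in thymic tuft libraries alone.

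The promoters of the NR4A genes are shown because all 3 hold 4 copies of the core letters of the cAMP response element, TGACG or CGTCA, in the 250 bases before the start. The letters were sought on both strands in RefSeq windows of GRCm38.p6, which gave a window for 28 of the 34 genes. Of 27025 genes with a window, 19.8% held the core at least once and 0.163% held 4 or more. The cut-off of 4 is the number that the NR4A windows hold, so the last share is not a test of them. The core is part of the full element TGACGTCA, which 1.77% held, and which was found in Dusp1 and Btg2. Sequences run 5′ to 3′ and end at the base before the start, with matches in capitals. Nr4a1 lies at chr15:101266596-101266845 on the plus strand and Nr4a2 at chr2:57124004-57124253 on the minus strand. The Nr4a3 window, which holds its matches 231, 213, 205 and 147 bases before the start, overlaps annotated exons and is not printed.
Nr4a1: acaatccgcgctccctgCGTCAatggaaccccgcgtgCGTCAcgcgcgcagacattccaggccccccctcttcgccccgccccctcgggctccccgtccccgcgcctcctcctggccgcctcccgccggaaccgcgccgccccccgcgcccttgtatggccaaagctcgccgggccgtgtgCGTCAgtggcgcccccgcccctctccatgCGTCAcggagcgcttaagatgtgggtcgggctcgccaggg
Nr4a2: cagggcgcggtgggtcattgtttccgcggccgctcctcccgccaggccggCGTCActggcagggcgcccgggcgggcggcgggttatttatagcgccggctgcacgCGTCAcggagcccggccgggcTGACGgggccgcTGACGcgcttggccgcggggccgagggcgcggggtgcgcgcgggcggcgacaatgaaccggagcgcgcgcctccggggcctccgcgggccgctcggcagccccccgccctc
At least 1 core was found in 12 of the 23 immediate early genes with a window. The matches describe letters and were not tested as binding sites.

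Among the IER proteins and Myc, Myc, which drives growth and biosynthesis, had 204, 147, 239.6 and 249 CPM in thymic tuft, 47.5, 30.8 and 33.2 CPM in SI tuft and 107, 114 and 108 CPM in SI epithelium libraries. The 3 groups did not overlap. The log2 fold change of Myc was 2.50 ± 0.22 in thymic against SI tuft cells (edgeR adjusted p = 2.15e-06), -1.56 ± 0.22 in SI tuft cells against SI epithelium (edgeR adjusted p = 0.00033) and 0.94 ± 0.21 in thymic tuft cells against SI epithelium (edgeR adjusted p = 0.00278).

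Ier2, a small nuclear regulator of transcription, ran the other way between the tuft groups. It had 32.7, 47.8, 54.0 and 82.4 CPM in thymic tuft, 91.1, 85.4 and 107 CPM in SI tuft and 191, 230.4 and 186 CPM in SI epithelium libraries. It was lower in thymic than in SI tuft cells (-0.80 ± 0.25, edgeR adjusted p = 0.0187) and lower in SI tuft cells than in epithelium (-1.10 ± 0.27, edgeR adjusted p = 0.0121). The first call was lost without SI tuft replicate 4 (edgeR adjusted p = 0.0719) and with DESeq2 size factors (edgeR adjusted p = 0.0962). The second was lost without SI epithelium replicate 2 (edgeR adjusted p = 0.0574) or SI tuft replicate 3 (edgeR adjusted p = 0.0561).

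Ier3, an inhibitor of cell death that also prolongs ERK signalling, averaged 74.4 ± 14.8 CPM in thymic tuft (SD, n = 4), 33.4 ± 8.29 CPM in SI tuft and 27.9 ± 6.91 CPM in SI epithelium (n = 3 each). Thymic tuft cells were higher than SI tuft cells (1.16 ± 0.25, edgeR adjusted p = 0.0022) and higher than SI epithelium (1.41 ± 0.25, edgeR adjusted p = 0.000581). Ier5, which binds and activates heat shock factor 1, averaged 158 ± 34.9, 95.0 ± 47.8 and 101 ± 19.1 CPM and passed in no comparison. SI tuft replicate 2 stood apart for Ier5, with 39.8 CPM against 120.2 and 125 CPM in SI tuft replicates 3 and 4.

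The KLF factors are zinc finger proteins of epithelial and endothelial differentiation, and all 3 were lower in SI tuft cells than in epithelium. Klf2, which is best known from endothelium and resting T cells, was the rarest of the 3, with 2.17, 2.32, 2.73 and 3.21 CPM in thymic tuft, 2.36, 0.572 and 0.766 CPM in SI tuft and 14.3, 17.7 and 11.5 CPM in SI epithelium libraries. Both tuft groups were below epithelium, with a log2 fold change of -2.48 ± 0.53 in thymic tuft cells (edgeR adjusted p = 0.00202) and -3.55 ± 0.61 in SI tuft cells (edgeR adjusted p = 0.00124). The last value was -4.43 without SI tuft replicate 2, the highest of its group. Klf6, a factor induced by wounding, averaged 411 ± 47.5 CPM in thymic tuft (SD, n = 4), 225 ± 28.5 CPM in SI tuft and 485 ± 32.4 CPM in SI epithelium (n = 3 each). It was lower in SI tuft cells than in epithelium (-1.11 ± 0.15, edgeR adjusted p = 0.000256) and higher in thymic than in SI tuft cells (0.87 ± 0.15, edgeR adjusted p = 0.000373).

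Klf4, which promotes goblet cell differentiation in the gut, averaged 375 ± 79.6 CPM in thymic tuft, 253 ± 21.8 CPM in SI tuft and 380.4 ± 40.5 CPM in SI epithelium. Goblet cell markers were at 1841 to 2292 CPM in SI tuft and 81619 to 91547 CPM in SI epithelium, and their part in the Klf4 difference was not tested. Its level in SI tuft cells was called below that of SI epithelium at -0.59 ± 0.18 (edgeR adjusted p = 0.0388), a call lost when any 1 of the 6 intestinal libraries was left out (edgeR adjusted p between 0.0594 and 0.154). It was called higher in thymic than in SI tuft cells at 0.57 ± 0.17 (edgeR adjusted p = 0.0171), a call lost without SI tuft replicate 2 (edgeR adjusted p = 0.0664) or replicate 3 (edgeR adjusted p = 0.0674).

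The feedback regulators shorten the response that induces them. Dusp1, a phosphatase that switches off p38 and JNK, had 873, 595, 767 and 1039.8 CPM in thymic tuft, 741, 417 and 427 CPM in SI tuft and 1123, 1194 and 1344 CPM in SI epithelium libraries. It was lower in SI tuft cells than in epithelium (-1.21 ± 0.25, edgeR adjusted p = 0.00404). The tuft groups overlapped, and their log2 fold change of 0.63 ± 0.23 (edgeR adjusted p = 0.0379) was lost without thymic replicate 1 or 4, SI tuft replicate 3 or 4, or any 1 SI epithelium library (edgeR adjusted p between 0.0501 and 0.154). Dusp6, a phosphatase that acts on ERK, had 14.2, 4.86, 11.6 and 29.0 CPM in thymic tuft, 16.3, 21.9 and 48.2 CPM in SI tuft and 44.8, 35.3 and 51.3 CPM in SI epithelium libraries. It was called lower in thymic tuft cells than in SI epithelium (-1.55 ± 0.51, edgeR adjusted p = 0.0227) and lost that call without SI epithelium replicate 1 (edgeR adjusted p = 0.0588) or 3 (edgeR adjusted p = 0.0788) and without thymic replicate 1 (edgeR adjusted p = 0.051) or 3 (edgeR adjusted p = 0.0561).

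Zfp36 (tristetraprolin), which binds AU-rich mRNAs such as that of Fos and speeds their decay, had 1541, 1430.5, 1507 and 1367 CPM in thymic tuft, 2002, 2268 and 1983 CPM in SI tuft and 2283, 2813 and 3057 CPM in SI epithelium libraries. The 3 groups did not overlap, with thymic tuft cells lowest. Thymic tuft cells were lower than SI tuft cells (-0.51 ± 0.13, edgeR adjusted p = 0.00697) and lower than SI epithelium (-0.90 ± 0.13, edgeR adjusted p = 0.000147). The first call was lost with DESeq2 size factors (edgeR adjusted p = 0.111). Btg2, an antiproliferative cofactor of mRNA deadenylation, averaged 243 ± 33.0 CPM in thymic tuft (SD, n = 4), 237 ± 11.5 CPM in SI tuft and 428 ± 42.1 CPM in SI epithelium (n = 3 each). It was lower than in epithelium in both tuft groups, with a log2 fold change of -0.82 ± 0.14 in thymic (edgeR adjusted p = 0.000491) and -0.85 ± 0.15 in SI tuft cells (edgeR adjusted p = 0.00173). Exons on the other strand share 125 bases with Zfp36 (Gm44710) and 11 bases with Dusp1 (Ergic1).

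Gadd45a was the 1 gene of the 34 called higher in SI tuft cells than in epithelium. This growth arrest and DNA damage response gene had 38.4, 31.0, 37.9 and 28.0 CPM in thymic tuft, 228, 212 and 156 CPM in SI tuft and 100.3, 112 and 106 CPM in SI epithelium libraries. The groups did not overlap, and thymic tuft cells had the lowest level. Gadd45a changed by 0.91 ± 0.19 on the log2 scale in SI tuft cells against SI epithelium (edgeR adjusted p = 0.00425), -2.55 ± 0.18 in thymic against SI tuft cells (edgeR adjusted p = 2.76e-07) and -1.65 ± 0.17 in thymic tuft cells against SI epithelium (edgeR adjusted p = 9.02e-06). Exons of E230016M11Rik on the other strand share 337 bases with it, and that gene had 1.51, 4.62 and 4.33 CPM on average in thymic tuft, SI tuft and SI epithelium.

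Its relative Gadd45b, induced by NF-kB and TGF-beta, averaged 52.6 ± 19.3 CPM in thymic tuft (SD, n = 4), 28.5 ± 4.85 CPM in SI tuft and 46.8 ± 4.00 CPM in SI epithelium (n = 3 each). It was higher in thymic than in SI tuft cells (0.88 ± 0.28, edgeR adjusted p = 0.0185), a call lost without SI tuft replicate 4 (edgeR adjusted p = 0.0837) and at 0.05 without replicate 2. Socs3, which blocks cytokine receptors that signal through JAK and STAT3, had 107, 135, 42.7 and 96.2 CPM in thymic tuft, 18.9, 16.5 and 11.7 CPM in SI tuft and 27.4, 30.4 and 26.8 CPM in SI epithelium libraries. Every thymic library was above every intestinal one. In thymic tuft cells the log2 fold change was 2.60 ± 0.35 against SI tuft cells (edgeR adjusted p = 6.23e-05) and 1.76 ± 0.33 against SI epithelium (edgeR adjusted p = 0.000938).

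**Figure D3:**
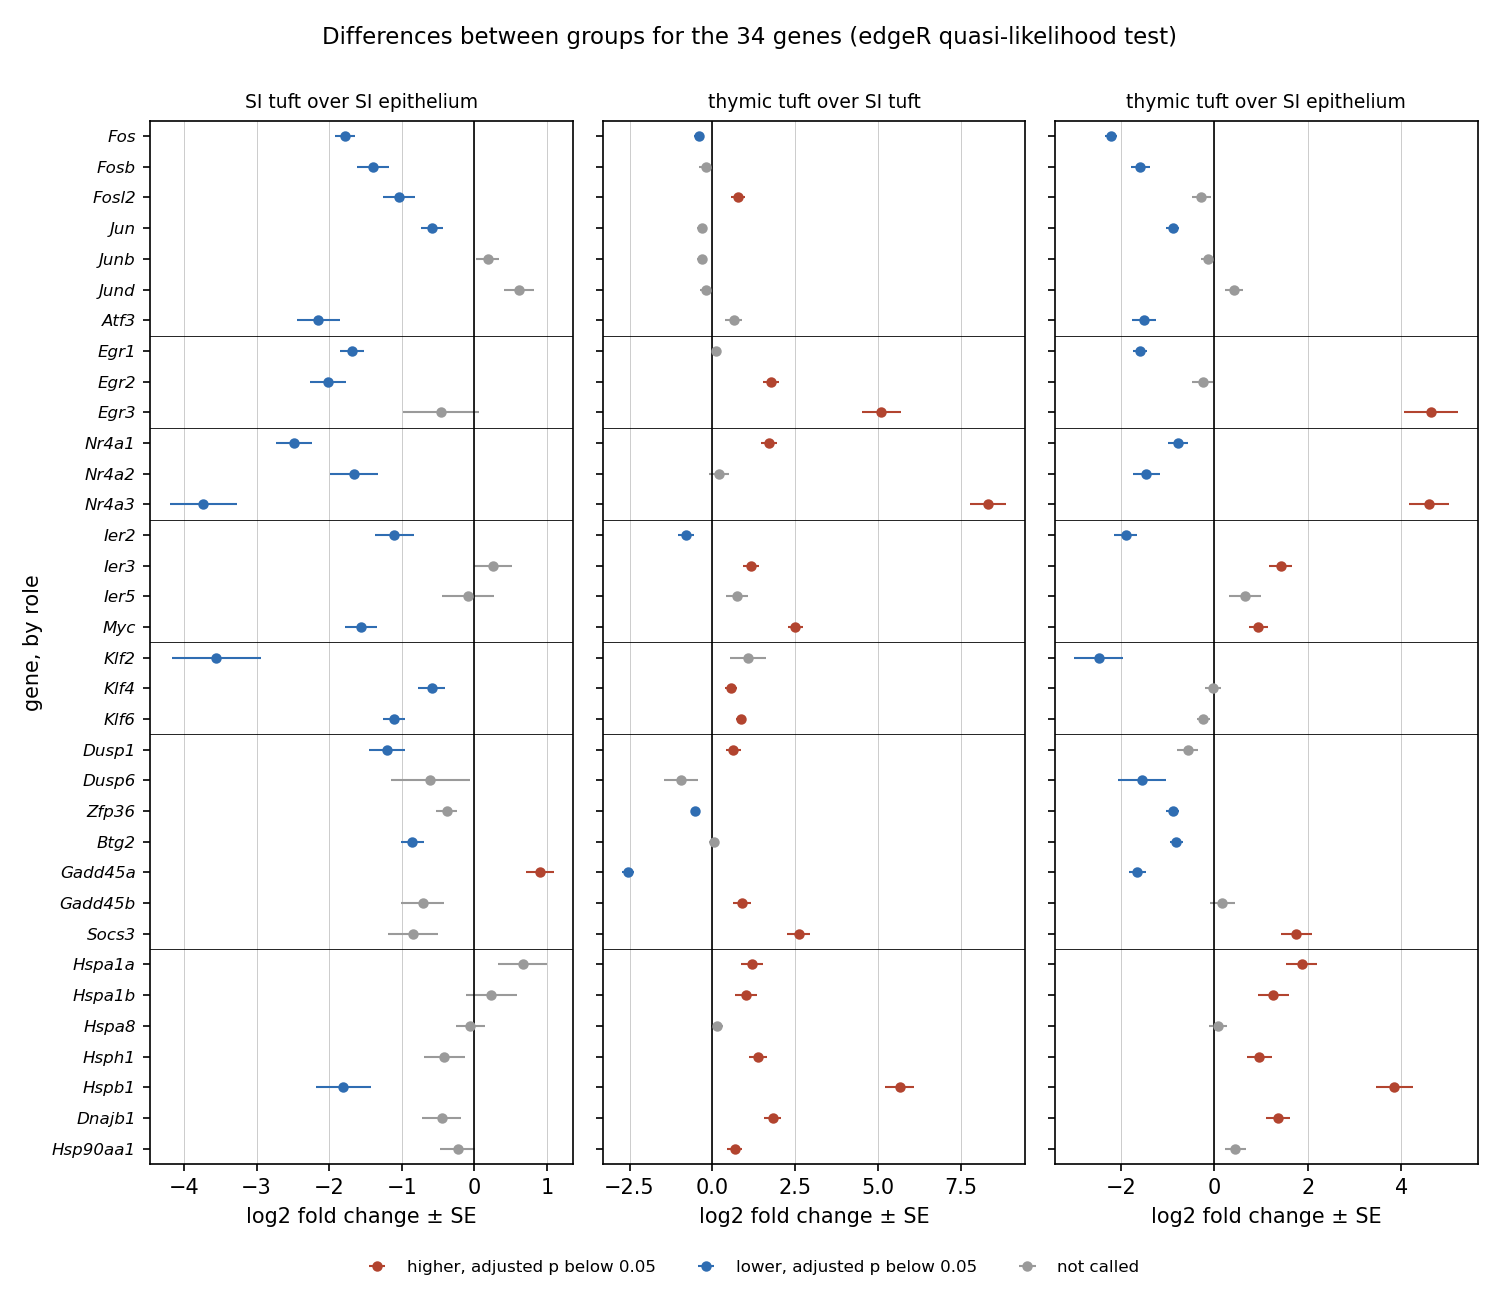
Log2 fold change with its SE (edgeR quasi-likelihood fit over 10 libraries) for the 34 genes in SI tuft over SI epithelium, thymic tuft over SI tuft and thymic tuft over SI epithelium; the 3 panels have different axis ranges, and colour marks the direction of a call. The left panel holds 18 lower calls and 1 higher, the middle one 18 higher and 4 lower, and the right one 5 heat shock genes and 5 immediate early genes that are higher and 13 immediate early genes that are lower.

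The heat shock genes differed between the groups in another way. In thymic tuft cells 6 of 7 were higher than in SI tuft cells and 5 of 7 higher than in SI epithelium, where 28.5% and 28.6% of all genes were called higher, and none was lower. In SI tuft cells against SI epithelium 1 of 7 was lower and none higher. Dnajb1 (Hsp40), the cochaperone that loads clients onto HSP70, had 815, 803, 988 and 693 CPM in thymic tuft, 290.5, 201 and 213 CPM in SI tuft and 379, 401 and 183 CPM in SI epithelium libraries. Every thymic library was above every intestinal one, with a log2 fold change of 1.81 ± 0.26 against SI tuft cells (edgeR adjusted p = 0.000125) and 1.36 ± 0.26 against SI epithelium (edgeR adjusted p = 0.000935). Hsph1 (HSP110), a nucleotide exchange factor of HSP70, had 649, 490.0, 680.2 and 778 CPM in thymic tuft, 224, 263 and 264 CPM in SI tuft and 419, 409 and 173 CPM in SI epithelium libraries. Hsph1 was higher in thymic tuft cells, with a log2 fold change of 1.37 ± 0.28 against SI tuft cells (edgeR adjusted p = 0.00138) and 0.96 ± 0.27 against SI epithelium (edgeR adjusted p = 0.0112).

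Hspa1a and Hspa1b encode the stress-inducible HSP70 and lie next to each other on chromosome 17. Their coding sequences of 1923 and 1926 bases are 99.4% identical, so the split of reads between them is uncertain and their sum is the safer value. Gm20481, which shares 564 exon bases with Hspa1a on the other strand, had no counts. The sum was 609, 503, 644 and 607 CPM in thymic tuft, 354, 243 and 218 CPM in SI tuft and 245, 266 and 84.8 CPM in SI epithelium libraries. Thymic tuft libraries were above all intestinal ones, and the intestinal groups overlapped. Taken singly, Hspa1a was higher in thymic tuft cells by 1.20 ± 0.33 against SI tuft cells (edgeR adjusted p = 0.00895) and by 1.87 ± 0.34 against SI epithelium (edgeR adjusted p = 0.000634). Hspa1b was higher than in SI tuft cells (1.02 ± 0.33, edgeR adjusted p = 0.0221) and than in SI epithelium (1.26 ± 0.33, edgeR adjusted p = 0.00803), and its call against SI tuft cells was lost without SI tuft replicate 3 (edgeR adjusted p = 0.0839) or 4 (edgeR adjusted p = 0.0822).

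Hspb1 (HSP25), a small chaperone that holds unfolding proteins, had 45.6, 47.8, 66.7 and 97.0 CPM in thymic tuft, 1.12, 1.61 and 1.11 CPM in SI tuft and 4.88, 5.86 and 2.67 CPM in SI epithelium libraries. No groups overlapped. Its log2 fold change in thymic tuft cells was 5.65 ± 0.43 against SI tuft cells (edgeR adjusted p = 5.77e-07) and 3.85 ± 0.39 against SI epithelium (edgeR adjusted p = 6.1e-06). In SI tuft cells it was -1.80 ± 0.38 against SI epithelium (edgeR adjusted p = 0.00486). Removal of the shared counts took up to 17.6% of its counts in an epithelial library and left that difference called at -1.64. Hsp90aa1, the inducible form of HSP90, averaged 189 ± 24.7 CPM in thymic tuft (SD, n = 4), 118 ± 12.4 CPM in SI tuft and 139 ± 46.7 CPM in SI epithelium (n = 3 each). It was higher in thymic than in SI tuft cells (0.67 ± 0.22, edgeR adjusted p = 0.0243), a call lost without any 1 of SI tuft replicates 2, 3 and 4 (edgeR adjusted p = 0.0984, 0.0505 and 0.0635). Hspa8, the constitutive HSC70, averaged 318 ± 18.7, 288 ± 77.3 and 299.8 ± 55.7 CPM and passed in no comparison, with log2 fold changes between -0.06 and 0.14.

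The promoters of the HSP70 pair and of Hspb1 are shown because they hold the core of a heat shock element, which is an inverted pair of GAA units written here as GAANNTTC or TTCNNGAA, sought on both strands in the 250 bases before the start. At least 1 match was found in 4 of the 5 heat shock genes with a window (Hspa1a, Hspa1b, Hspb1 and Hsph1). It was also found in 3 of the 23 immediate early genes and in 14.5% of all 27025 genes. The share with 2 or more, the number that Hspb1 holds, was 1.67% of all genes and is not a test of Hspb1. The windows are chr17:34972157-34972406 on the minus strand for Hspa1a, chr17:34959239-34959488 on the minus strand for Hspa1b and chr5:135887669-135887918 on the plus strand for Hspb1 (RefSeq, GRCm38.p6).
Hspa1a: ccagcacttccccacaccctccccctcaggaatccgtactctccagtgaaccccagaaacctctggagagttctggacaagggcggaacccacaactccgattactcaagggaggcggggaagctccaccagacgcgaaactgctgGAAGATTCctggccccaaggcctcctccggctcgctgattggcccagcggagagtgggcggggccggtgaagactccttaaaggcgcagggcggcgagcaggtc
Hspa1b: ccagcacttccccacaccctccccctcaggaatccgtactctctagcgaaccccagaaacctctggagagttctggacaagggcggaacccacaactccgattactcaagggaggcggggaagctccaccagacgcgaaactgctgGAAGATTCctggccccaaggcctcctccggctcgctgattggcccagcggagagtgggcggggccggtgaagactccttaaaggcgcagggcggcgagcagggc
Hspb1: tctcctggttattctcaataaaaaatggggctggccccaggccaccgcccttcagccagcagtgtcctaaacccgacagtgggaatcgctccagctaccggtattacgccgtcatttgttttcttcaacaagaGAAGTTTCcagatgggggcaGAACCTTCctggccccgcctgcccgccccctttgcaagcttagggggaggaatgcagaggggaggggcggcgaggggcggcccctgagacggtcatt
The windows of Hspa1a and Hspa1b differ at 3 of 250 bases and hold their match at the same place, 104 bases before the start, whereas the matches of Hspb1 begin 117 and 97 bases before it. Matches were not tested as binding sites.

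SI epithelium replicate 3 was the lowest of its group for all 7 heat shock genes, where it was the lowest for 36.0% of all genes tested. Its value divided by the mean of replicates 1 and 2 was 0.315 to 0.805 over the 7, with a median of 0.469, against a median of 0.995 over the other 27 genes. Over the 8723 genes with at least 10 CPM the median ratio was 1.02, and 5% of genes lay below 0.735. Of the heat shock genes only Hspa8 (0.805) was above that lower bound. Of 24 further cytosolic chaperones and heat shock factor 1 targets, with a median ratio of 0.999, 4 were below it (Cryab, Dnaja1, Dnajb4 and Dnajb5, named after their values were seen). Egr3 (0.396), Nr4a3 (0.577) and Klf2 (0.718) were also low in that library. Hspb1, Cryab, Dnajb5, Egr3 and Nr4a3 were below 10 CPM in every SI epithelium library, so a bound drawn from more abundant genes does not cover them. With shared counts taken away, Cryab held 0, 0.170 and 0 CPM in SI epithelium. Without SI epithelium replicate 3, Dnajb1 (-0.73, edgeR adjusted p = 0.0284) and Hsph1 (-0.72, edgeR adjusted p = 0.0299) passed as well in SI tuft cells against SI epithelium, which made 3 of 7 lower. The calls of the 7 in thymic tuft cells against SI epithelium stayed at 5 higher without it.

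**Figure D4:**
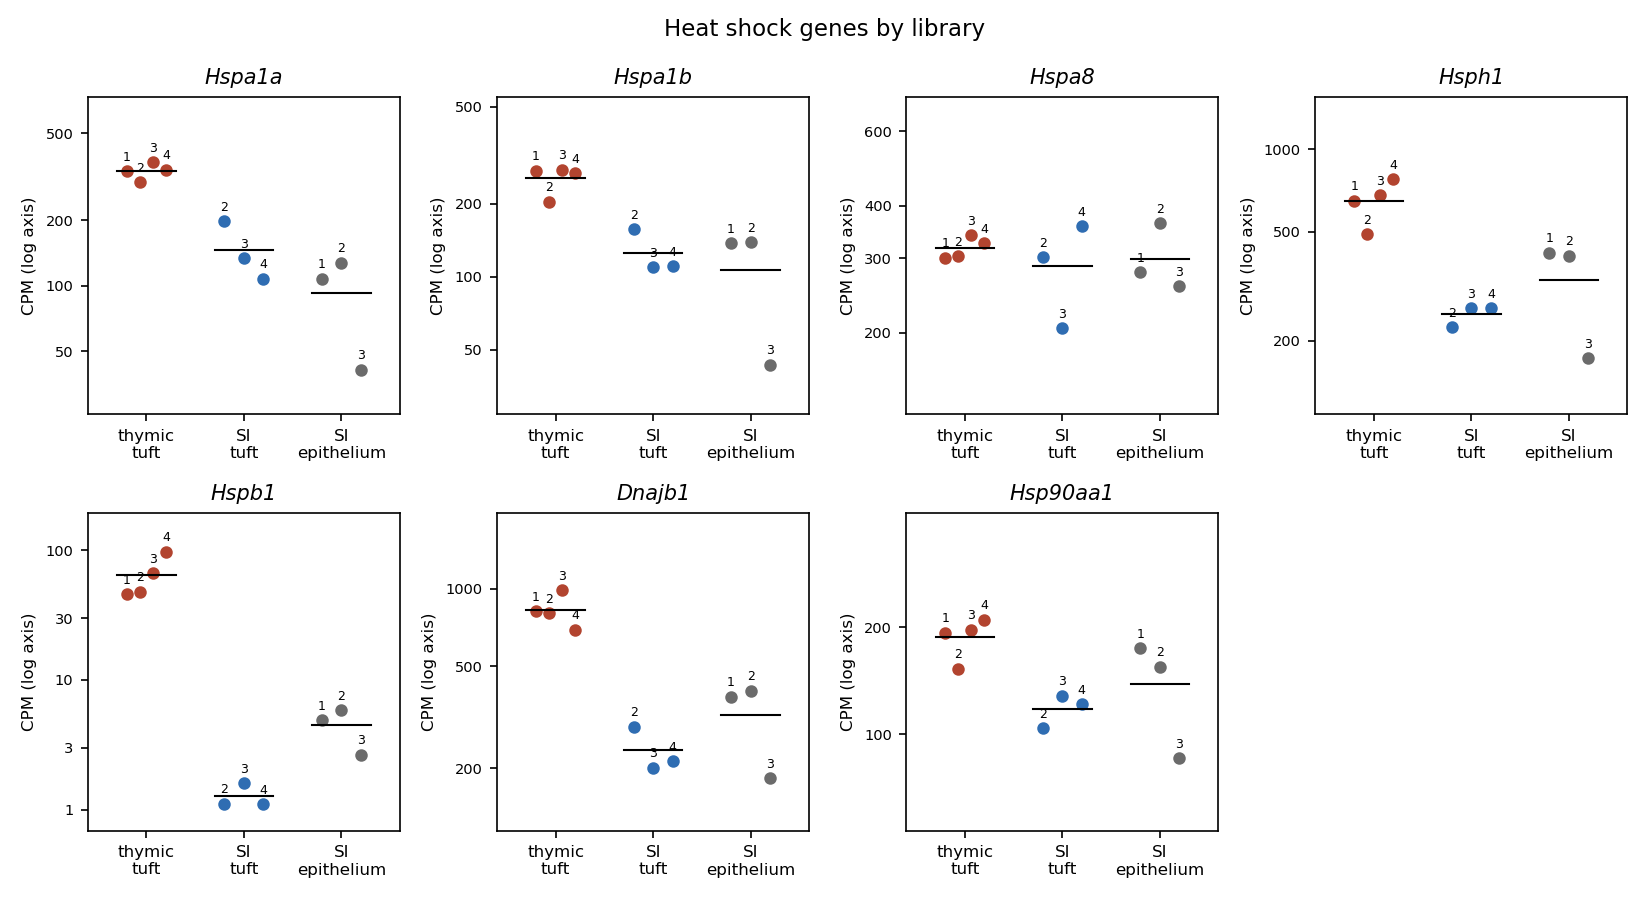
CPM of the 7 heat shock genes on a log axis for thymic tuft, SI tuft and SI epithelium, with 1 point for each library, its replicate number above it and a line at the group mean. Thymic tuft libraries lie above all intestinal libraries for Hspa1a, Hspa1b, Hsph1, Hspb1 and Dnajb1, and SI epithelium replicate 3 is the lowest epithelial library in every panel.

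Per kilobase of exon, which allows levels of different genes to be set side by side, Zfp36, Egr1 and Jun led the 34 genes in all 3 groups. Egr1 had 386 CPM per kilobase in thymic tuft, 359 in SI tuft and 1158 in SI epithelium, Zfp36 had 421, 601 and 783, and Jun had 285, 355 and 531. In thymic tuft cells Dnajb1 followed at 257, a level of 73.3 in SI tuft and 100.2 in SI epithelium. The lowest of the 34 were Nr4a3 in SI tuft cells, at 0.0868, and Klf2 in thymic tuft cells and Egr3 in SI epithelium, at 1.41 and 1.14. The 34 genes are compact, with a median span of 4360 bases against 23530 over the 15787 protein-coding genes tested.

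Further genes of the same pathways were counted from lists, and the examples are among the 2 largest called changes in each direction. The counts of these lists stand beside 10.9% of all genes called higher and 11.4% lower in SI tuft cells against SI epithelium, 28.5% and 23.1% in thymic against SI tuft cells, and 28.6% and 22.3% in thymic tuft cells against SI epithelium. Of 18 genes of the MAP kinase and serum response factor route, 1 was higher and 5 lower in SI tuft cells than in epithelium, 4 were higher and 5 lower in thymic than in SI tuft cells, and 2 were higher and 6 lower in thymic tuft cells than in SI epithelium. Srf itself, the factor that drives many immediate early promoters, averaged 506 ± 42.4 CPM in thymic tuft (SD, n = 4), 117 ± 21.6 CPM in SI tuft and 232 ± 16.2 CPM in SI epithelium (n = 3 each). It was higher in thymic than in SI tuft cells (2.11 ± 0.16, edgeR adjusted p = 5.25e-07) and lower in SI tuft cells than in epithelium (-0.99 ± 0.16, edgeR adjusted p = 0.000818), and so stood in the order of Myc. Mapk3 (ERK1) was lower in thymic than in SI tuft cells (-2.11 ± 0.15, edgeR adjusted p = 2.87e-07).

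Of 25 further immediate early genes, 3 were higher and 9 lower in SI tuft cells than in epithelium, 13 higher and 3 lower in thymic than in SI tuft cells, and 12 higher and 6 lower in thymic tuft cells than in SI epithelium. Plk2, a polo-like kinase, was higher in SI tuft cells than in epithelium (3.58 ± 0.20, edgeR adjusted p = 1.28e-07), as was Sik1, a salt-inducible kinase (2.63 ± 0.21, edgeR adjusted p = 2.38e-06), against the direction of most of the 34. Ccn1 (-2.87 ± 0.23, edgeR adjusted p = 2.38e-06) and Arc (-2.43 ± 0.23, edgeR adjusted p = 1.26e-05) were lower. Ptgs2, the inducible cyclooxygenase of prostaglandin synthesis, was higher in thymic tuft cells than in SI tuft cells (4.04 ± 0.23, edgeR adjusted p = 6.21e-08), as was Arc (3.88 ± 0.24, edgeR adjusted p = 1.17e-07).

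Of 20 further feedback regulators, 4 were higher and 8 lower in SI tuft cells than in epithelium, 9 higher and 4 lower in thymic than in SI tuft cells, and 7 higher and 5 lower in thymic tuft cells than in SI epithelium. Dusp4 and Dusp10, phosphatases of the MAP kinases, were higher in thymic than in SI tuft cells (5.71 ± 0.29, edgeR adjusted p = 2.46e-08) and 3.43 ± 0.23 (edgeR adjusted p = 1.9e-07). Gadd45g, the third GADD45 gene, followed Gadd45a, being higher in SI tuft cells than in epithelium (1.42 ± 0.27, edgeR adjusted p = 0.00276) and lower in thymic than in SI tuft cells (-1.39 ± 0.25, edgeR adjusted p = 0.000648).

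Of 24 further cytosolic chaperones and heat shock factor 1 targets, 3 were higher and 3 lower in SI tuft cells than in epithelium, 10 higher and 5 lower in thymic than in SI tuft cells, and 9 higher and 3 lower in thymic tuft cells than in SI epithelium. The small chaperone Hspb8 was higher in thymic than in SI tuft cells (8.03 ± 0.53, edgeR adjusted p = 1.66e-07). Cryab, another one, was called higher too with an average of 42.3 ± 11.7 CPM in thymic tuft (SD, n = 4) against 0.0503 ± 0.0406 CPM in SI tuft cells (n = 3), the last value being near the level of 3 counts. Hsf2, a second heat shock factor, was higher in SI tuft cells than in epithelium (3.06 ± 0.24, edgeR adjusted p = 2.6e-06) and lower in thymic than in SI tuft cells (-1.93 ± 0.21, edgeR adjusted p = 1.21e-05). Of 7 mitochondrial chaperones, 1 was higher and 3 lower in SI tuft cells than in epithelium, 0 were higher and 4 lower in thymic than in SI tuft cells, and 0 were higher and 7 lower in thymic tuft cells than in SI epithelium. Hspd1 (HSP60), for example, was lower in SI tuft cells than in epithelium (-1.23 ± 0.17, edgeR adjusted p = 0.000265).

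Of 16 genes of endoplasmic reticulum stress and the integrated stress response, 0 were higher and 9 lower in SI tuft cells than in epithelium, 5 higher and 2 lower in thymic than in SI tuft cells, and 2 higher and 10 lower in thymic tuft cells than in SI epithelium. Chac1, an ATF4 target that degrades glutathione, was lower in SI tuft cells than in epithelium (-4.77 ± 0.89, edgeR adjusted p = 0.00223), and the value was -6.31 without SI tuft replicate 2. Sesn2, another stress-induced gene, was higher in thymic than in SI tuft cells (3.43 ± 0.38, edgeR adjusted p = 1.31e-05). Of 12 genes of oxidative and metal stress, 3 were higher and 1 lower in SI tuft cells than in epithelium, 4 higher and 6 lower in thymic than in SI tuft cells, and 5 higher and 6 lower in thymic tuft cells than in SI epithelium. Hmox1, the heme oxygenase, was higher in thymic than in SI tuft cells (3.11 ± 0.29, edgeR adjusted p = 3.09e-06) and higher in SI tuft cells than in epithelium (2.50 ± 0.30, edgeR adjusted p = 7.18e-05). With the counts shared between libraries taken away, the last value was 3.39.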

How the data were processed

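RNA was measured by poly(A) RNA-seq in 10 libraries of sorted cells. Per the labels' protocols, cDNA was amplified with NuGEN Ovation V2 and libraries were made with Nextera XT, which marks no strand, and of 4 replicates sorted per population the authors left out 1 SI tuft and 1 SI epithelium sample after quality control. Each deposited file holds whole-number read counts per Ensembl gene, with STAR, DESeq2 and GRCm38 named in the submitters' processing notes. The counter and its settings are not given in the sources used here.

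The 34 genes, the other gene lists and the tests were chosen with earlier results of these data known. Counts were fitted over all 10 libraries in 1 model with 1 mean per group by edgeR 4.0.16 in R 4.3.3 (quasi-likelihood test, filterByExpr with a minimum count of 10 and a minimum total of 15, TMM scaling), with Benjamini-Hochberg adjustment over 19281 genes and a threshold of 0.05. SEs are the log2 fold change divided by the square root of F. CPM use TMM-scaled library sizes, and CPM per kilobase uses the union of GENCODE M21 exons. From each further list, up to 2 genes per direction and comparison with the largest change among called genes of at least 10 CPM could be named, and examples were taken from these.

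As alternatives, scaling used size factors of the DESeq2 kind, computed in edgeR (relative log expression) and named DESeq2 size factors here, or the upper quartile. In other settings the filter was dropped, or the DESeq2 1.42.0 Wald test, with its own size factors, replaced edgeR, which changed scaling and test together. Further settings fitted only the 2 groups compared or a replicate block, removed shared counts, or left out each library in turn. Each library is 1 mouse, so p-values rest on the spread between mice handled by 1 protocol per organ. The main fit pooled this spread over all groups, although it differed between them. Over all genes tested, thymic libraries varied most (biological coefficient of variation 0.7825, fitted in each group without TMM factors). Those of SI tuft cells varied less (0.497) and those of SI epithelium least (0.262). Single genes did not all follow this order. Relative to the mean, the SD of Hspa1a, Hspa1b, Hsph1, Dnajb1 and Hsp90aa1 was largest in SI epithelium, whereas that of Hspa8 and Hspb1 was not. A p-value of the main fit thus does not measure the spread of the compared groups alone. Levels of 3 counts cover counting error only.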

Additional observations from a re-analysis of the deposited data

Results flagged for a closer look

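Of 78 sets of 4 thymic tuft values tested, 7 held a library far from the others, where chance alone is set to flag about 5% of sets. Among the 34 genes, Fosl2 was high in thymic replicate 1 (301 CPM, others 187 to 203), Klf6 was high in replicate 4 (482 CPM, others 382 to 398) and Hspa1b was low in replicate 2 (203 CPM, others 267 to 275). Outside the 34, Arc was low in thymic replicate 2 (62.9 CPM, others 89.6 to 95.0). Chac1 (1.901 CPM, others 1.07 to 1.18) and Slc7a11 (40.5 CPM, others 25.1 to 27.5) were high in thymic replicate 4, and Spry1 was high in thymic replicate 3 (13.1 CPM, others 2.63 to 4.39). Groups of 3 libraries were not tested in this way.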

How the results depend on the processing

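No called log2 fold change of the 34 genes changed sign under any of the 17 alternatives. Of the gene results over all alternatives and comparisons, 1645 kept their side of the threshold, 49 lost a call and 40 gained one. In SI tuft cells against SI epithelium, all genes called numbered 6988 when the fit held only the 2 groups compared, against 4300. They numbered 2888 to 3340 with 1 intestinal library left out and 4490 to 5270 with 1 thymic library left out. The genes of the 34 called higher there were 2 with the DESeq2 Wald test and 2 with only the 2 groups compared, against 1, and 1 to 2 with 1 library left out. Of thymic against SI tuft cells, 1 gene was called lower with DESeq2 size factors, 1 with the Wald test and 2 with only the 2 groups compared, against 4, and 3 to 5 with 1 library left out. The causes were not tested. Correlations of deviations from the group means were -0.04 to 0.10 for same-numbered libraries and -0.07 to 0.08 for others. The numbers are thus not taken as pairs. The highest value, 0.10, was that of replicate 2 of thymic tuft and SI epithelium, which also shared counts. Such small groups cannot show whether same-numbered libraries came from the same mouse. With the replicate block the calls of the 34 were 1 higher and 17 lower in SI tuft cells against SI epithelium, 16 higher and 4 lower in thymic against SI tuft cells, and 10 higher and 13 lower in thymic tuft cells against SI epithelium. Depth limits only values near 0.0817 CPM or below.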

Other observations

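A few genes outside the 34 had levels in thymic tuft cells that neither intestinal group approached. Slc7a11, the cystine transporter that feeds glutathione synthesis, had 25.1, 27.5, 26.0 and 40.5 CPM in thymic tuft, 0.850, 0.218 and 0.554 CPM in SI tuft and 1.39, 0.870 and 1.11 CPM in SI epithelium libraries. It was higher in thymic than in SI tuft cells by 5.77 ± 0.53 on the log2 scale (edgeR adjusted p = 2.47e-06). Dusp14, a MAP kinase phosphatase, had 53.8, 77.8, 68.9 and 149.8 CPM in thymic tuft, 10.6, 15.6 and 13.1 CPM in SI tuft and 1.54, 1.53 and 0.848 CPM in SI epithelium libraries. Its 3 groups did not overlap, and its lowest level was in epithelium, with a log2 fold change of 3.33 ± 0.40 in SI tuft cells against SI epithelium (edgeR adjusted p = 8.91e-05). With the counts shared between libraries taken away it was 4.45.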
